A study of Bos taurus with 3 samples.

Results

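The whey and secreted milk protein genes followed here are LALBA (alpha-lactalbumin), PAEP (beta-lactoglobulin), GLYCAM1 (glycosylation-dependent cell adhesion molecule 1) and LPO (lactoperoxidase), 4 of the 9154 genes that had tags in at least 1 library. They were chosen by gene symbol, and each symbol belonged to a single RefSeq transcript in the gene tables: NM_174378.2, NM_173929.3, NM_174828.2 and NM_173933.2, respectively. Mammary tissue came from 18 Holstein cows of the same age, all in the second parity, for which no treatment was described. There were 6 cows at each of 3 time points: −35 d (the dry period), −7 d (late pregnancy) and +3 d (colostrum production), in days relative to parturition. The 6 tissues of each group were combined into a single DGE (digital gene expression) library, so no value below has a spread among cows. Tissues taken before calving came from within a few days of the nominal day. DGE counts short tags of 21 bases that begin at a CATG site, and sequencing depth was 5914422 clean tags for the −35 d library, 5593237 for −7 d and 5845821 for +3 d. Levels are given as TPM, the unambiguous tags of a gene per 1000000 clean tags, which are not divided by transcript length because a transcript gives tags at its CATG sites and not along its length. Tags that matched several genes were left out by the authors, which can lower the level of a gene with few sites of its own.

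Alpha-lactalbumin is the regulatory subunit of lactose synthase. It binds the galactosyltransferase B4GALT1 in the Golgi apparatus and turns it to the synthesis of lactose, the sugar that draws water into milk. Beta-lactoglobulin is a lipocalin, a carrier protein for small hydrophobic molecules, and is the most abundant whey protein of cow milk. GLYCAM1 is a mucin-like glycoprotein of whey, which is also made by the high endothelium of lymph nodes. Lactoperoxidase is a haem enzyme that uses hydrogen peroxide to oxidise thiocyanate to an antibacterial product. In the mammary gland, milk protein genes are expressed by secretory epithelial cells, and prolactin and glucocorticoids drive many of them.

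All 4 genes had their highest level at +3 d, but they differed by orders of magnitude in level and in when they rose. PAEP was at 757 TPM at −35 d, 13817 TPM at −7 d and 57199 TPM at +3 d. It already ranked 60th among the 8662 listed genes of the dry gland, was the gene with the most tags at −7 d and ranked 3rd at +3 d, behind CSN1S1 and CSN2. In the dry gland the genes with the most tags were FTH1 (ferritin heavy chain), SPP1, RPL13A, RPL10 and CLU, and the ribosomal protein genes RPL13A and RPL10 were still 4th and 5th at −7 d. LALBA was at 3.72 TPM at −35 d, 199 TPM at −7 d and 5225 TPM at +3 d, and its rank moved from 6427 to 268 and then to 7. GLYCAM1 was at 4.06, 94.2 and 3840 TPM in the same order, with ranks of 6314, 693 and 9. LALBA and GLYCAM1 thus began at these low ranks and ended among the 10 genes with the most tags. LPO had no listed tag at −35 d, 2 tags (0.358 TPM) at −7 d and 440 tags (75.3 TPM, rank 710) at +3 d. In whole tissue, fewer cells of a type and less RNA per cell cannot be told apart, and this holds for every level given here.

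The depth sets how well the low values are known. The exact (Clopper-Pearson) 95% interval of LALBA at −35 d, from 22 tags, was 2.33 to 5.63 TPM, and that of GLYCAM1, from 24 tags, was 2.60 to 6.04 TPM, so their order in the dry gland was not detectable at this depth. At −7 d the intervals were 187 to 211 TPM for LALBA and 86.3 to 103 TPM for GLYCAM1 and no longer overlapped. A count of 0 was taken to allow up to 3 tags, which is 0.507 TPM in the −35 d library (the exact upper limit was 0.624 TPM), and both cover counting error only, since a gene that is not listed may still have had tags. The interval of LPO at −7 d was 0.0433 to 1.29 TPM, so LPO could not be told apart between these 2 libraries. PCR can copy a tag many times, so these intervals cover counting error only.

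**Figure D1:**
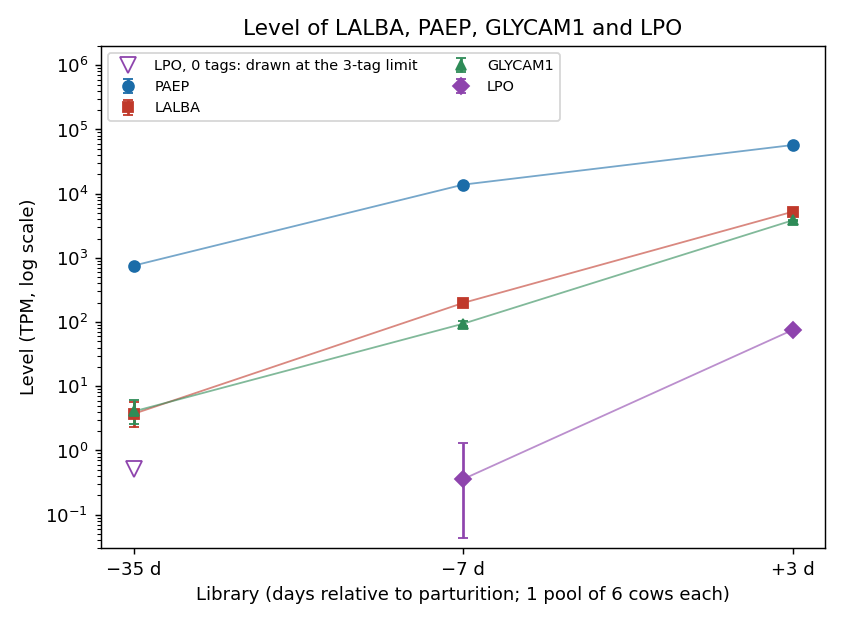
Level of PAEP, LALBA, GLYCAM1 and LPO in TPM (log axis) in the 3 libraries, with exact 95% intervals for counting error; the open triangle stands for the 0 tags of LPO at −35 d, drawn at the 3-tag limit of 0.507 TPM. PAEP lies highest in each library, and LALBA and GLYCAM1 start together at 3.72 and 4.06 TPM and separate at −7 d.

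The comparison of −7 d with −35 d follows stage I of lactogenesis, in which the gland prepares to secrete. LALBA rose 53.4-fold (95% interval 35.1 to 85.6), GLYCAM1 23.2-fold (15.4 to 36.6) and PAEP 18.2-fold (17.7 to 18.8). LALBA had the second largest log2 ratio among the 7984 genes with at least 10 tags over the 3 libraries (0.5 tags added to each count), since only 1 gene had a higher one. GLYCAM1 stood behind 9 genes and PAEP behind 14 in the same order. By the Audic-Claverie test, which compares the tag counts of 2 libraries against Poisson counting error, the adjusted p was 9.68e-129 for GLYCAM1 and at most 1e-300 for LALBA and PAEP. A gene was called at an FDR of at most 0.001 and a 2-fold difference, and 3 of the 4 genes were called higher. Of the 8967 genes tested, 9.07% were called, 2.62% higher and 6.45% lower, and after TMM scaling 378 genes were called higher and 350 lower. LPO was not called, with 0 and 2 tags and an adjusted p of 0.346. The test compares libraries and not conditions. If pools were assumed to vary with a biological coefficient of variation of 0.4, PAEP (adjusted p = 0.0106) and GLYCAM1 (adjusted p = 0.00726) were no longer called by edgeR's exact test.

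At +3 d compared with −7 d, which spans stage II and the onset of copious secretion, the order of the genes changed. LPO rose the most, from 2 to 440 tags, a ratio of 210.5 with a wide counting interval of 57.9 to 1744. GLYCAM1 rose 40.8-fold (37.4 to 44.5), LALBA 26.3-fold (24.8 to 28.0) and PAEP 4.14-fold (4.11 to 4.17). All 4 genes were called higher, beside 3.12% of the 8784 genes tested (10.4% were called lower, and TMM scaling gave 516 genes higher and 430 lower), with an adjusted p of 1.35e-122 for LPO and at most 1e-300 for the others (Audic-Claverie test). PAEP had the smallest ratio of the 4. With 0.5 tags added to each count, 195 of the 7984 genes had a higher one, compared with 9 for GLYCAM1 and 18 for LALBA. No rank is given for LPO, which passed the limit of 10 tags only through the +3 d library. PAEP (adjusted p = 0.759) and LALBA (adjusted p = 0.00113) were not called by edgeR's exact test when a coefficient of variation of 0.4 was assumed.

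**Figure D2:**
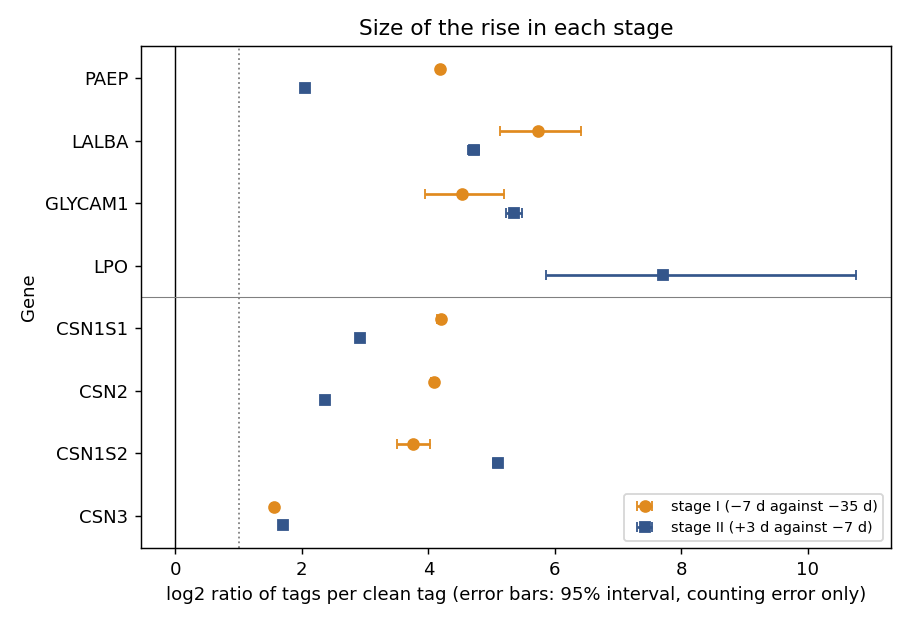
log2 ratios of stage I (circles) and stage II (squares) with 95% intervals for counting error, for the 4 genes and the 4 casein genes; the dotted line marks a 2-fold difference. PAEP rose more in stage I (4.19) than in stage II (2.05), while for GLYCAM1 the order was the opposite (4.54 and 5.35); LPO has no stage I value because it had 0 and 2 tags.

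Over the whole interval from −35 d to +3 d, LALBA rose 1405-fold (928 to 2242) and GLYCAM1 946-fold (636 to 1477). With 0.5 tags added to each count, their log2 ratios were the highest and the second highest among the 7984 genes, while without added tags HSTN (histatherin), with 6 tags at −35 d, had a ratio of 975, above that of GLYCAM1. PAEP rose 75.5-fold (73.4 to 77.8) from a level that was already high. LPO, with its 0 listed tags at −35 d set to 3 tags, had a ratio of 148. This value is not a lower limit, since the exact upper limit for 0 tags (0.624 TPM) lies above this floor (0.507 TPM). It also leaves out the counting error of the 440 tags at +3 d and any tags that were not listed. All 4 genes were called higher. Among the 8988 genes tested 18.6% were called, 2.33% higher and 16.3% lower, and after TMM scaling 559 genes were called higher and 444 lower. On the log2 scale, stage I held 67.2% of the rise of PAEP, 54.9% of that of LALBA and 45.9% of that of GLYCAM1. In TPM, however, most of each rise came after −7 d, since the −7 d level was 24.2% of the +3 d level for PAEP, 3.80% for LALBA and 2.45% for GLYCAM1. The milk protein genes took a growing part of all tags, and the median log2 ratio of all genes tested was −0.21 in stage I, −0.30 in stage II and −0.54 over the whole interval. TMM scaling, which centres most genes near 0, would raise every log2 ratio by 0.19, 0.31 and 0.50, respectively.

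A ratio of 2 genes within the same library does not depend on how libraries are scaled, so the 4 genes were also set against each other. Per 100 tags of GLYCAM1, LALBA had 91.7 in the −35 d library, 211 in the −7 d library and 136 in the +3 d library. LALBA therefore rose more than GLYCAM1 in stage I, by 1.20 on the log2 scale (95% interval 0.29 to 2.12), and less in stage II, by −0.63 (−0.78 to −0.48). Between −35 d and +3 d their rises could not be told apart, with a difference of 0.57 (−0.33 to 1.47). PAEP and LALBA drew together, from 204 PAEP tags per LALBA tag at −35 d to 69.6 at −7 d and 10.9 at +3 d. The rise of LALBA exceeded that of PAEP by 1.55 (0.94 to 2.23) in stage I and by 2.67 (2.58 to 2.75) in stage II. The stage I rises of PAEP and GLYCAM1 differed by −0.35 with an interval that holds 0 (upper limit 0.24), whereas in stage II GLYCAM1 rose more by 3.30 log2 units (PAEP minus GLYCAM1 −3.30, −3.42 to −3.17). LPO rose more than LALBA in stage II, the fold change of LALBA being 0.125 times that of LPO (0.0151 to 0.455), and more than GLYCAM1, whose fold change was 0.194 times that of LPO (0.0233 to 0.707). These intervals rest on the 2 tags of LPO at −7 d.

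Together the 4 genes took 0.0765% of all clean tags in the dry gland, 1.41% in late pregnancy and 6.63% after calving. PAEP made up 99.0%, 97.9% and 86.2% of these tags, and the share of LALBA grew from 0.486% to 1.41% and 7.88%. GLYCAM1 held 0.531%, 0.668% and 5.79% of them. LPO held 0.113% at +3 d.

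The caseins, which form the micelles of milk, are the other main class of milk proteins, and 0.273%, 2.75% and 16.9% of the clean tags fell on their 4 genes (CSN1S1, CSN2, CSN1S2 and CSN3). Against them the whey protein genes did not move as a group. PAEP had 27.8 tags per 100 casein tags at −35 d (26.8 to 28.7), 50.2 at −7 d (49.8 to 50.7) and 33.9 at +3 d (33.7 to 34.0), so it outpaced the casein sum in stage I, by 0.86 on the log2 scale (0.81 to 0.90), and fell behind it in stage II, by −0.57 (−0.58 to −0.56). The stage I difference depends on the weight of CSN3, which held 8226 of the 16132 casein tags at −35 d and rose only 2.95-fold. Against CSN1S1 the stage I difference of PAEP was −0.0047, and against CSN2 it was 0.10. LALBA outpaced the casein sum in both stages, from 0.136 to 0.722 and 3.09 tags per 100 casein tags. GLYCAM1 did too, from 0.149 to 0.343 and 2.27 tags per 100. The differences in log2 ratio were 2.40 (1.80 to 3.09) and 2.10 (2.01 to 2.19) for LALBA and 1.20 (0.61 to 1.86) and 2.73 (2.61 to 2.86) for GLYCAM1 in stages I and II.

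**Figure D3:**
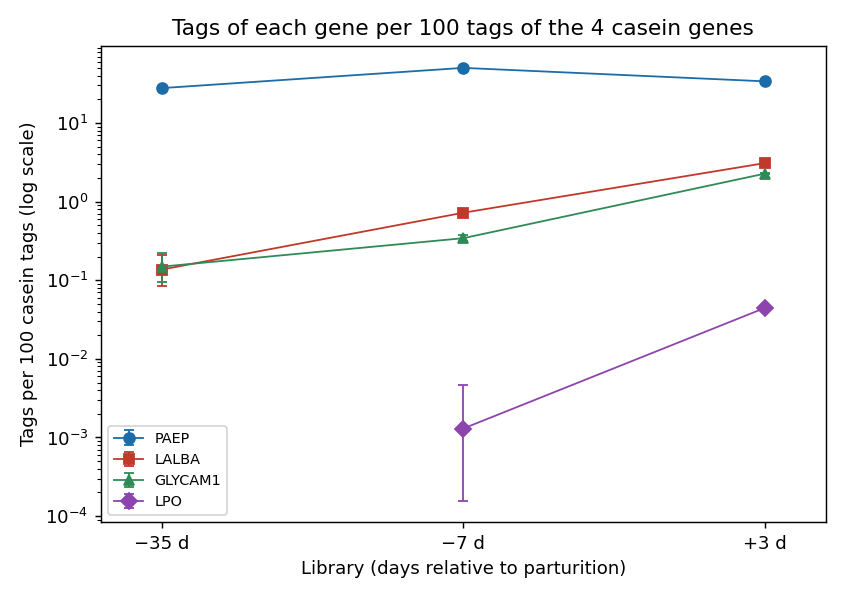
Tags of each gene per 100 tags of the 4 casein genes together (log axis) in the 3 libraries, with exact 95% intervals for counting error; LPO had 0 tags at −35 d and is not drawn there. PAEP peaks at −7 d with 50.2, while LALBA, GLYCAM1 and LPO have their highest value at +3 d. At −35 d CSN3 holds 8226 of the 16132 casein tags, and the values at −35 d depend on its weight.

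The single casein genes also differed among themselves. The stage I rise of PAEP could not be told apart from that of CSN1S1 (difference −0.0047 on the log2 scale, −0.071 to 0.061). It exceeded that of CSN2, the gene of beta-casein, by only 0.10 (0.041 to 0.16) but that of CSN3, the gene of kappa-casein, by 2.63 (2.57 to 2.68). In stage II, PAEP rose less than CSN1S1 (−0.88, −0.89 to −0.86) and CSN2 (−0.32, −0.33 to −0.30), and far less than CSN1S2 (−3.04, −3.12 to −2.97), but more than CSN3 (0.34, 0.32 to 0.36). CSN1S2 was the casein gene nearest to LALBA and GLYCAM1 in stage II, with 133, 1701 and 60734 tags in the 3 libraries. There its rise lay between the 2, with LALBA lower by −0.38 (−0.49 to −0.27) and GLYCAM1 higher by 0.25 (0.11 to 0.40).

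The genes most like each member were found by the Euclidean distance between the pairs of stage I and stage II log2 ratios, over the 3 libraries and among the 7984 genes (0.5 tags added). HSTN was nearest to both LALBA (distance 0.77) and GLYCAM1 (0.66). It had 6, 190 and 5781 tags, a log2 ratio of 5.07 (3.92 to 6.53) in stage I and of 4.86 (4.65 to 5.08) in stage II, and 989 TPM at +3 d. In the annotation of the later assembly ARS-UCD2.0, used for gene order only, HSTN lies within the casein cluster, next to CSN2. CSN1S2 and ALOX15, a lipoxygenase, also stood among the 5 nearest genes of both LALBA and GLYCAM1. ALOX15 had 0, 5 and 104 tags.

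PAEP was closest to CSN2 (distance 0.33), followed by TMOD4 (0.69), FABP3 (0.73), CSN1S1 (0.88) and BOLA-DQB (0.93). FABP3, a fatty acid carrier, had 9, 259 and 915 tags, and BOLA-DQB, an MHC class II chain, 3, 78 and 188. TMOD4, which caps actin filaments in muscle, had only 0, 6 and 41 tags. LPO had no close counterpart. Its nearest gene was SST (somatostatin), with 0, 0 and 97 tags, at a distance of 2.33, and the fifth nearest was KRT75, a keratin, with 0, 0 and 15 tags. The place of LPO rests on the tags added to its counts of 0 and 2.

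**Figure D4:**
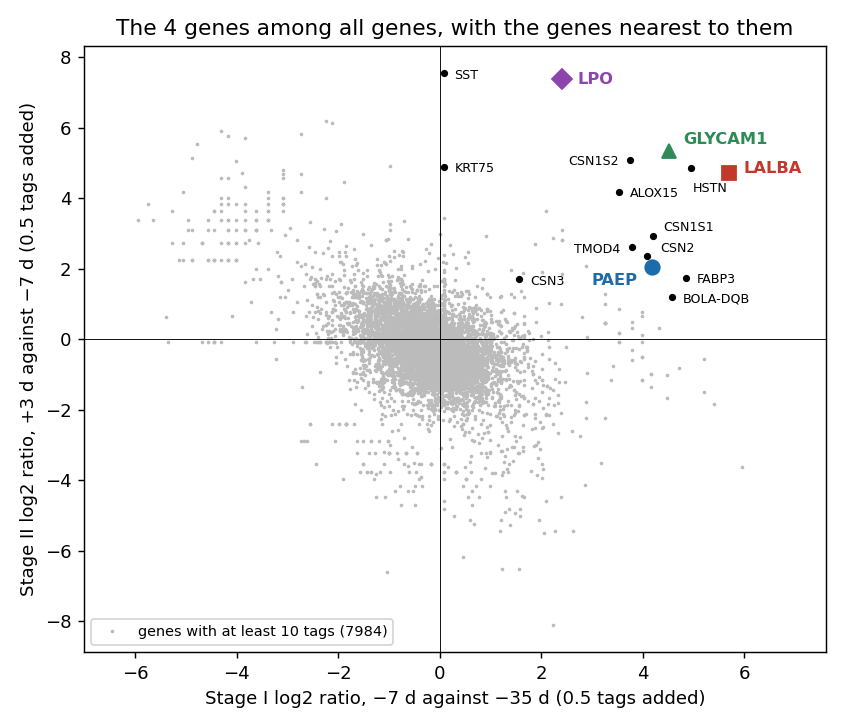
Stage I log2 ratio (x axis) against stage II log2 ratio (y axis), with 0.5 tags added to each count, for 7984 genes with at least 10 tags (grey); both axes use the −7 d library, so the points share its counting error. LALBA, GLYCAM1 and PAEP lie at upper right, with HSTN and 3 casein genes close by, and LPO lies near the top.

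The genes that lie next to the 4 on the chromosomes were examined for comparison. The 5 protein-coding neighbours on each side of each member in ARS-UCD2.0 made 40 genes, of which 10 had listed tags. None of these 10 was called higher in either stage or over the whole interval by the Audic-Claverie test, and with 2.33% to 3.12% of all genes called higher, a count of 0 of 10 is near that background. CACNB3, a calcium channel subunit gene near LALBA with 47, 11 and 27 tags, was called lower in stage I (6.45% of all genes were), and 1 gene was called lower over the whole interval, where 16.3% of all genes were. That gene was METAP2, a methionine aminopeptidase near GLYCAM1, with 567, 355 and 214 tags, and it was not called after TMM scaling. KANSL2, the nearest gene on one side of LALBA, had 193, 228 and 222 tags. MPO, the myeloperoxidase gene that adjoins LPO, had no listed tags in any library.

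Lactose synthesis needs more than LALBA. Of a list of 21 genes of this pathway and of related sugar transport and metabolism, such as UGDH and PGM3, 16 had tags. B4GALT1, the catalytic partner of alpha-lactalbumin, was at 18.4, 42.0 and 21.7 TPM. It rose in stage I by 1.19 on the log2 scale (0.86 to 1.53), and at +3 d its ratio to −35 d was 0.24 (−0.14 to 0.62). In stage II its ratio was −0.95, which was not called. UGP2, which makes UDP-glucose, was at 130, 174 and 166 TPM, and neither this gene nor the glucose transporter gene SLC2A1 (205, 306 and 292 tags) was called in any comparison. At +3 d compared with −35 d, none of the 16 genes was called higher and 2 were called lower (HK1, a hexokinase, and UGDH, which oxidises UDP-glucose), beside 2.33% higher and 16.3% lower among all genes tested. After TMM scaling, 3 were called higher (the glucose transporter genes SLC2A1, SLC2A3 and SLC2A8) and none lower. The same scaling called 559 of all 8988 genes tested higher and 444 lower. The median log2 ratio of the 16 genes was −0.23, and that of all genes tested was −0.54.

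**Figure D5:**
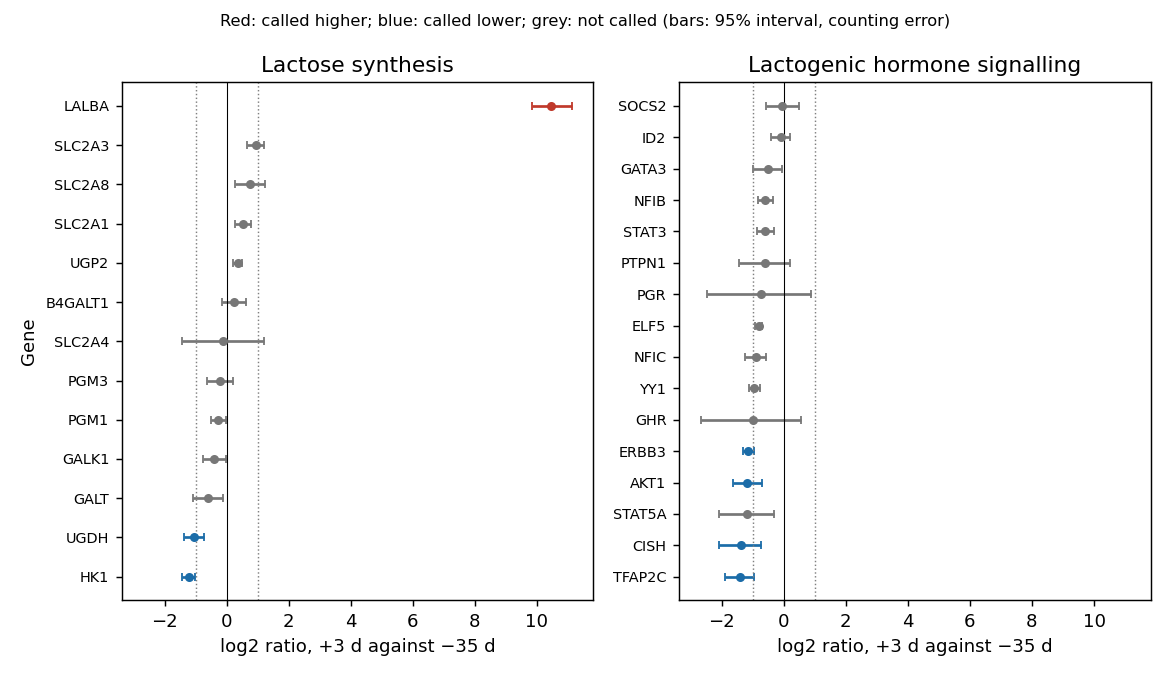
log2 ratio at +3 d compared with −35 d, with 95% intervals for counting error, for genes of lactose synthesis with LALBA (left) and of lactogenic hormone signalling (right); red and blue mark genes called higher and lower, dotted lines a 2-fold difference, and genes with at most 3 tags in either library are not drawn. LALBA lies at 10.46, while the other genes drawn from the lactose synthesis list lie between −1.23 and 0.93.

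Genes related to the 4 by structure or function followed various courses. Of the lysozyme family, to which alpha-lactalbumin belongs, LYZ was at 99.1, 42.0 and 74.2 TPM and fell in stage I by −1.24 (−1.46 to −1.02). In stage II LYZ was called higher only after TMM scaling. LYZ2 had 60, 69 and 27 tags and was called lower in stage II, a call lost after TMM scaling. LYZ1 had 7, 10 and 0 tags and was not called in any comparison. Of the lipocalins beside PAEP, PTGDS (prostaglandin D synthase) was at 780, 311 and 435 TPM and APOD (apolipoprotein D) at 450, 142 and 405 TPM, and both fell in stage I, while APOD rose again in stage II. C8G, the lipocalin of the complement component, rose in stage I from 70.3 to 168 TPM, and BDA20, an allergen of cattle dander, from 3.55 to 13.1 TPM before it fell to 1.54 TPM at +3 d. Between −35 d and +3 d, PAEP was the only one of the 6 lipocalin genes tested that was called, where 18.6% of all genes were. After TMM scaling C8G was called higher as well, where 559 of the 8988 genes tested were. Of the haem peroxidases and their oxidant source, LPO was the only gene with more than 5 tags in a library apart from CYBA, a subunit of NADPH oxidase, which fell in stage I, from 41.8 to 14.3 TPM, and was at 11.3 TPM at +3 d. CD34, like GLYCAM1 a sialomucin of vessels, was at 192, 128 and 157 TPM and was not called in any comparison.

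Other proteins of whey and of milk defence went different ways. Of 54 genes, 35 had tags, and over the whole interval 5 were called higher and 7 lower of the 34 tested, beside 2.33% and 16.3% of all genes. In stage I 3 of 35 were called higher and 10 lower, beside 2.62% and 6.45% of all genes. In stage II 7 were called higher and 6 lower, beside 3.12% and 10.4%. After TMM scaling 10 were called higher and 3 lower, beside 516 and 430 of the 8784 genes tested. Their summed level was 20946 TPM at −35 d, 12693 TPM at −7 d and 10017 TPM at +3 d, which was above the sum of the 4 genes followed here in the dry gland (765 TPM) and below it at +3 d (66338 TPM). LTF (lactoferrin, an iron-binding defence protein) fell from 2650 TPM to 1136 TPM over the whole interval, a log2 ratio of −1.22 (−1.26 to −1.18), a call that was lost after TMM scaling. SPP1 (osteopontin), the most abundant of the list in the dry gland, was at 5637, 333 and 524 TPM. PIGR, which carries IgA into milk, was at 145, 1390 and 299 TPM, a rise in stage I and a fall in stage II. CLU (clusterin) fell in stage I, from 4744 to 1858 TPM, and NPC2, a cholesterol-binding protein, fell in stage II, from 850 to 406 TPM, which TMM scaling did not leave as a call. B2M (beta-2-microglobulin) was at 4209, 4366 and 2285 TPM and was not called in any comparison.

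Prolactin, glucocorticoids and growth hormone act on these genes through receptors, kinases and transcription factors. The list used here also holds receptors of other hormones and growth factors, such as OXTR, PGR and ERBB3, and 18 of its 33 genes had tags. The genes PRLR, NR3C1, JAK2 and STAT5B had no listed tags in any library. STAT5A, a transcription factor activated by prolactin, had 39, 40 and 17 tags and was not called in any comparison. ELF5, an epithelial transcription factor, was at 271, 353 and 155 TPM and fell in stage II by −1.19 (−1.30 to −1.07), a call that was lost after TMM scaling. At +3 d compared with −35 d, 1 gene of the 18 was called higher, OXTR, the oxytocin receptor, with 2, 9 and 37 tags, and 4 were called lower (ERBB3, AKT1, TFAP2C and CISH), beside 2.33% and 16.3% of all genes tested. After TMM scaling, 1 was called higher and none lower, beside 559 and 444 of the 8988 genes tested. The median log2 ratio of the 18 genes was −0.85, with that of all genes tested at −0.54.

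Luminal epithelial markers were present in each library, with 11 of 15 genes listed, as the mammary label of the tissue implies; KRT18, KRT19, ESRP1 and CD24 were not listed. The summed level of the 11 was 2162 TPM at −35 d, 1555 TPM at −7 d and 1154 TPM at +3 d, with EPCAM the most abundant at −35 d (498 TPM), ELF5 at −7 d (353 TPM) and KRT7 at +3 d (236 TPM). Between −35 d and +3 d, 4 were called lower and none higher, beside 16.3% and 2.33% of all genes tested. After TMM scaling none was called, beside 444 lower and 559 higher of the 8988 genes tested. In stage I, 3 were called lower (CLDN4, ELF3 and CDH1), beside 6.45% of all genes. ELF3 and CDH1 were also called lower after TMM scaling, where 350 of the 8967 genes tested were. Per 100 tags of these markers there were 35.0, 889 and 4955 tags of PAEP, 0.172, 12.8 and 453 of LALBA, and 0.188, 6.06 and 333 of GLYCAM1.

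Cells other than epithelium can hold RNA of such genes, and their markers were summed beside them. Neutrophil and eosinophil markers, which bear on LPO, had 6 of 14 genes listed, with 35.3, 19.1 and 23.8 TPM in sum, FCGR3A as the most abundant (14.2, 10.2 and 12.5 TPM), and MPO and EPX without listed tags. LPO was at 75.3 TPM at +3 d, and whether any of it came from these cells was not tested. Markers of lymphoid cells and high endothelium, where GLYCAM1 is also known, had 10 of 13 genes listed and summed to 168, 112 and 108 TPM; CD3E was the most abundant (48.5, 44.3 and 36.4 TPM) and MADCAM1 had no listed tags. CCL21, a chemokine of these vessels, fell in both stages, from 36.7 to 15.0 and 4.62 TPM, whereas CCL19 (17 to 51 tags) and CD8A (53 to 117 tags) rose in stage II, in which these 3 were the genes of the list that were called, beside 3.12% of all genes called higher and 10.4% lower. The macrophage sum of 1860, 1110 and 982 TPM was mostly CD74 (1620, 999 and 754 TPM), and of 10 macrophage transcripts 4 were called lower in stage I (LYZ, CSF1R, CD163 and CD68) and none higher, beside 6.45% and 2.62% of all genes. In stage II 3 were called higher (CSF1R, CD163 and CD14) and none lower, beside 3.12% and 10.4%. The adipocyte sum was 243, 175 and 453 TPM, and FABP4 and LPL, 2 of the 6 genes tested, were called higher in stage II (3.12% of all genes were), with a median log2 ratio of the list of 0.023. Most of the sum at +3 d was FABP4 (244 TPM) and LPL (172 TPM). Among the others PLIN1 rose in stage II (63 to 94 tags), while CIDEC (147 to 91), ADIPOQ (27 to 16) and LEP (16 to 12) fell, all without a call. The sums at −35 d, −7 d and +3 d were 119, 85.8 and 129 TPM for endothelial markers and 2.37, 1.79 and 4.11 TPM for erythrocyte markers. The part of these cells in the levels of the 4 genes was not tested.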

How the data were processed

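Mammary tissue of 18 cows was pooled by time point (6 cows each), and 1 DGE library was made per pool. Clean tags are those left after the authors discarded adaptor reads, tags of another length, tags holding an unknown base and tags seen once. They were matched to CATG sites of bovine transcripts (genome build UMD 3.1), allowing 1 mismatch, and tags of several genes were left out. The deposited counts are copies of each distinct tag and unambiguous tags per gene. The TPM values deposited by the authors are these counts per 1000000 clean tags, and dividing the counts by the summed copies of the tag tables gave the same values to within 0.0050 TPM. A deposited summary of other numbers was used for the genes detected: it counts unambiguous tags on 209, 228 and 223 more genes than the tables list at −35 d, −7 d and +3 d, so a gene without listed tags may have had some. Tag sequences were not tied to genes here.

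The gene tables were joined by transcript, with 0 for a gene not listed. Pairs of libraries were compared by the Audic-Claverie test (2 times the smaller tail) with Benjamini-Hochberg adjustment over all genes with a tag in either library. Calls needed an FDR of at most 0.001 and a 2-fold difference of TPM, with 0 TPM set to 0.01. An adjusted p under 1e-300 is written as that value. With 1 library per time point, edgeR's quasi-likelihood test could not be fitted, and tests cover counting error only. Intervals of fold changes came from exact binomial intervals. Intervals of differences between genes came from the log odds, or from the exact conditional odds ratio where a count was under 30. No fold is given where both counts are at most 3.

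The members and gene lists were chosen with earlier results of these data known, and a few genes of the lists are not reported here and are in none of their counts. Genes to name were drawn from the 4 members, the caseins, the 5 genes nearest to each member, the 5 most abundant genes of each library, and up to 6 of each list by mean TPM among genes with at least 10 tags; other genes of lists, and neighbours, were named after their values were seen. Alternatives were 4 other scalings (edgeR's TMM, DESeq2's size factors, totals without the 5 genes over 1% of clean tags, tags on listed genes), tails with the observed count, the exact test of Fisher, the exact test of edgeR (coefficient of variation set to 0.2 or 0.4), a 3-fold threshold, 0.5 tags added and a minimum mean of 5 TPM. Tools were Python 3.11.15, numpy 2.4.6, scipy 1.17.1, pandas 2.3.3, matplotlib 3.10.9, R 4.3.3, edgeR 4.0.16 and DESeq2 1.42.0.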

Additional observations from a re-analysis of the deposited data

How the results depend on the processing

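The 11 calls of the 4 genes, and the absence of a call for LPO in stage I, were the same under 128 of the 132 combinations of a comparison and an alternative. Most alternatives keep to counting error and could hardly change calls with ratios this large, so this count is no support for the calls. Only the exact test of edgeR allows for an assumed variation between pools. With its coefficient of variation set to 0.4, 4 of the 11 calls were lost. The adjusted p of that test was 0.0106 for PAEP and 0.00726 for GLYCAM1 in stage I, and 0.00113 for LALBA and 0.759 for PAEP in stage II. Another scaling moves all log2 ratios of a comparison alike, here by at most 0.52. It could not turn the direction of ratios as large as those of the 4 genes, so it does not test their direction. The number of all genes called depended more on the choices: 813, 1189 and 1672 genes in stage I, stage II and the whole interval became 54, 160 and 156 with a coefficient of variation of 0.2, 3, 8 and 14 with 0.4, and 317, 441 and 659 with a 3-fold threshold. Over the whole interval, 1003 genes were called after TMM scaling (44.3% lower), 992 with DESeq2's size factors (42.3%) and 1042 without the genes over 1% in the totals (60.5%), compared with 87.5% lower among the 1672. With the tags on listed genes as totals, 2053 genes were called in stage II (92.8% lower) and 3020 over the whole interval (96.0%). Among the 5 genes nearest to each member, at least 4 were shared under either alternative (at least 50 tags, or the largest difference as distance). The median log2 ratio of the lactose synthesis genes over the whole interval was 0.27 after TMM scaling, and that of the hormone signalling genes −0.36. No paired analysis was possible because each time point has 1 library, and for the same reason no library could be left out. Fold changes of LPO rest on 0 and 2 tags and are limited by depth.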

Other observations

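The proteins of the milk fat globule membrane, the epithelial membrane that wraps secreted fat, include 9 genes of the list, all with tags. Over the whole interval 7 were called higher and none lower by the Audic-Claverie test, beside 2.33% and 16.3% of all genes tested. After TMM scaling all 9 were called higher, where 559 of the 8988 genes tested were. BTN1A1 (butyrophilin) was at 4.40, 42.6 and 85.9 TPM at −35 d, −7 d and +3 d, and XDH (xanthine dehydrogenase) at 299, 827 and 1391 TPM. MUC15, a membrane mucin, was at 18.3 TPM at −35 d and rose in stage II, from 21.8 to 117 TPM, and CD36, a fatty acid transporter, fell in stage I, from 157 to 77.2 TPM (a call lost after TMM scaling), and rose in stage II to 272 TPM. PLIN2, which coats lipid droplets, was at 118, 509 and 204 TPM, a rise in stage I and a fall in stage II.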
